A study of Mus musculus with 12 samples.

Results

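The Zic genes encode zinc finger transcription factors, and the 4 members present under a platform symbol here were Zic1, Zic2, Zic4 and Zic5. They were chosen by gene symbol, which gave 8 of the 45037 probe sets of the array that are not controls. Of these 8 probe sets, 7 passed the filter on low values and all 4 genes were tested among 13984 genes. The RNA came from cultured mouse embryonic stem (ES) cells, which resemble the early epiblast, of 4 genotypes with 3 biological replicates each. The genotypes were wild type, Ring1B deficient, Eed deficient and Ring1B/Eed double deficient, and every mutation was made by gene targeting. The double deficient line was obtained by targeting Ring1B in cells that already lacked Eed. No genotype is described in the labels as having more than 1 line, so line and genotype cannot be told apart, and each p-value measures only the spread between these arrays. Ring1B, the product of Rnf2, provides the ubiquitin ligase activity of the Polycomb complex PRC1. Eed belongs to PRC2, the Polycomb complex that methylates histone H3. Both complexes hold developmental regulators at low expression in ES cells. Below, the mutant genotypes are also called cells without Ring1B, without Eed or without both.

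Zic proteins share their zinc finger domain with the Gli factors of the Hedgehog pathway. In vertebrate embryos they act in the neural plate and its border, the neural crest, the dorsal neural tube and the somites. Their genes lie in neighbouring pairs that are transcribed away from each other, Zic1 with Zic4 and Zic2 with Zic5. Zic1 and Zic4 are known for their roles in cerebellar development, Zic2 for forebrain patterning and neural tube closure, and Zic5 for neural tube closure and neural crest. The comparison addressed here is whether the family members that wild type ES cells keep low respond to loss of either Polycomb component differently from those that are already expressed.

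No promoter entry was available for Zic2. The promoters of the other 3 members are printed to show how differently they are built. They come from a RefSeq table of build GRCm38.p6, run 5′ to 3′ on the gene's own strand, and span 250 bases before to 50 bases after the listed start. Capitals mark matches, on either strand, to the GC box GGGCGG and to the CCAAT box. Zic1 is at chr9:91365719-91366018 on the minus strand, Zic4 at chr9:91368722-91369021 on the plus strand and Zic5 at chr14:122465609-122465908 on the minus strand.
Zic1: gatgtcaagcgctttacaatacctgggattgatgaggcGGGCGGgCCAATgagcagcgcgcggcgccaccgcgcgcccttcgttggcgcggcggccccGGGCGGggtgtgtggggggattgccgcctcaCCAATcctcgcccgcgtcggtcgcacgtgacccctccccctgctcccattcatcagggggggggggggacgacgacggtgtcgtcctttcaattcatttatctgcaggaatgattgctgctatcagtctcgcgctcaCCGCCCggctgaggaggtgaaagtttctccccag
Zic4: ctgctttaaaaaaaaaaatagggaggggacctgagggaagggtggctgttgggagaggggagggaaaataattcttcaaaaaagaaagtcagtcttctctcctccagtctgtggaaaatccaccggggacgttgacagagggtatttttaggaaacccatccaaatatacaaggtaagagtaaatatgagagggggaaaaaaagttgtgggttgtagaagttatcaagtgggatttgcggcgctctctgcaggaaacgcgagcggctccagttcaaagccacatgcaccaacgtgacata
Zic5: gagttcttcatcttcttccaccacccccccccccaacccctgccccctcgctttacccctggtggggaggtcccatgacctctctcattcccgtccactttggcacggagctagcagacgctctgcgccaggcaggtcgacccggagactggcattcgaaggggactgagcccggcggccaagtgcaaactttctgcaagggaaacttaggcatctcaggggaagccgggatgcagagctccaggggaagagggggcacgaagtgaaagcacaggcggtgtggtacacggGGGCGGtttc
The Zic1 window held 31 CpG dinucleotides, 3 GC box matches and 2 CCAAT box matches, and its GC content was 65.3%. The Zic4 window held 8 CpG dinucleotides and neither motif, at a GC content of 46.0%, and its listed start lay 3204 bases from that of Zic1. The Zic5 window held 15 CpG dinucleotides and 1 GC box match, at a GC content of 62.7%. The matches did not overlap each other, and none of the 3 windows held TATAAA on either strand. Among 32851 promoter windows of the same length the median was 7 CpG dinucleotides, and 10.56%, 48.65% and 34.64% held at least as many as Zic1, Zic4 and Zic5. A GC box match was present in 35.7% of all windows, a CCAAT box in 37.4% and TATAAA in 13.6%. These counts describe the letters of the windows only.

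The expression values are array signals on a linear scale, made with MAS5, with a trimmed mean of 100 on every array. Array medians lay between 19.07 and 28.01, and the 40th percentiles between 12.1 and 19.1. Of the targeted genes, Eed was close to lost in the genotypes labelled deficient for it, and Rnf2 was reduced but still bright. Eed gave 1248 to 1547 on wild type arrays and 1463 to 1969 on Ring1B deficient arrays, against 25.0 to 51.1 without Eed and 47.5 to 87.1 without both. Rnf2 gave 777 to 994 in wild type and 679 to 973 in Eed deficient cells, against 398 to 529 in Ring1B deficient and 362 to 399 in double deficient cells, so that the mean without Ring1B was 468 ± 65.7 against 851 ± 124 in wild type. The array reads transcript and not protein, and where the probes lie relative to the targeted part was not analysed here. The 9 ES cell markers were bright in every genotype, with the lowest genotype mean at 305 for Fgf4 in double deficient cells. They were nevertheless lower there, with 0, 1 and 7 of 9 called lower without Ring1B, Eed or both (median log2 change -0.09, -0.14 and -0.71) and 0 higher in each. In bulk RNA, fewer cells that express a gene and less RNA per cell cannot be told apart. The median change of all tested genes was 0.10 on the log2 scale from wild type to double deficient cells and 0.11 from Ring1B deficient to double deficient cells, and the changes below are not corrected for that shift.

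In wild type cells the family was split. Zic1 and Zic4 lay below the array median on all 3 wild type arrays, and are called low here. Zic5 lay above the 75th percentile on all 3 and is called active, and Zic2 lay between and is called intermediate. Loss of Ring1B, of Eed or of both went with a large rise of Zic1, with a fall of Zic5, with a difference in Zic2 that passed the test in Eed deficient cells but not in the other mutants, and with no called change of Zic4.

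**Figure D1:**
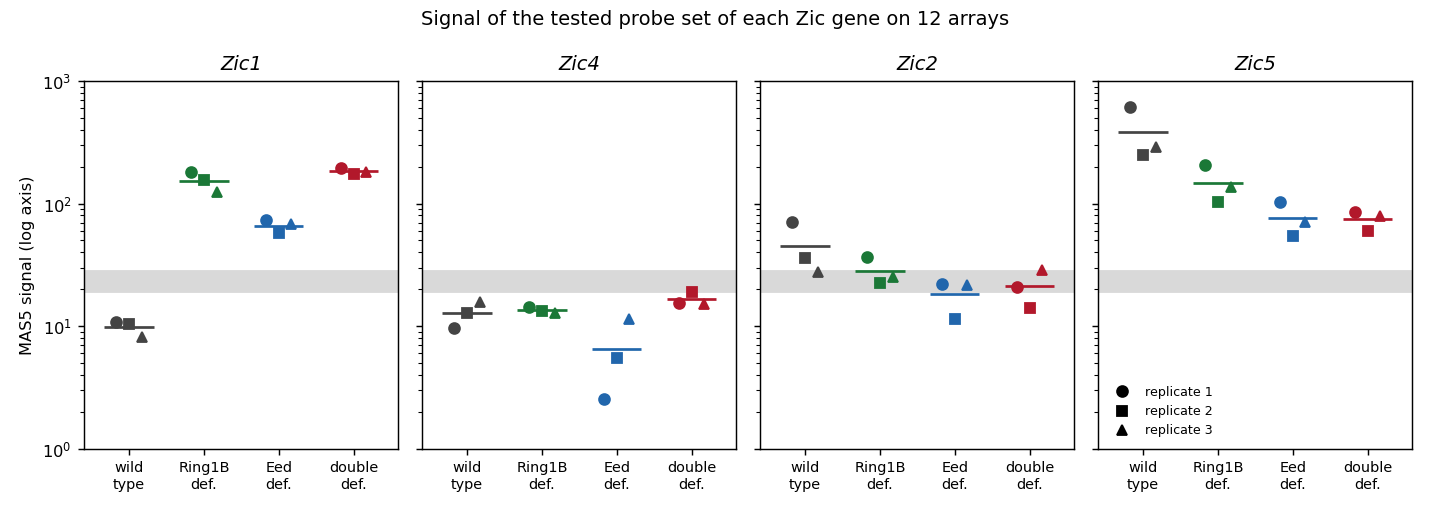
MAS5 signal (log axis) of the tested probe set of Zic1, Zic4, Zic2 and Zic5 on each of the 12 arrays, by genotype (def., deficient). Points are arrays, with the shape giving the replicate number, lines are means of 3 arrays, and the grey band spans the array medians, 19.07 to 28.01. Zic1 crosses the band from below in every mutant genotype, Zic5 comes down towards it from above, and Zic4 stays below it on all arrays.

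Zic1 was near the background in wild type and rose in all 3 mutant genotypes. Its tested probe set gave 10.8, 10.4 and 8.16 on the wild type arrays and 182, 156 and 124 on the Ring1B deficient arrays. The Eed deficient arrays gave 73.7, 57.2 and 67.6, and the double deficient arrays 196, 175 and 182. All 9 mutant arrays lay above all 3 wild type arrays, and the Eed deficient arrays lay apart from both other mutant genotypes. Mean signals were 9.78 ± 1.42 in wild type cells and 154 ± 28.9, 66.2 ± 8.34 and 184 ± 10.5 without Ring1B, Eed or both (SD, n = 3). These are ratios to wild type of 15.8, 6.77 and 18.8, which rest on a wild type signal below the 40th percentile of its arrays. Folds from the model were taken after adding 5 to each signal and are smaller. On that log2 scale Zic1 rose by 3.42 (SE 0.17, adjusted p = 6.8e-08 by limma with Benjamini-Hochberg adjustment) in Ring1B deficient cells. It rose by 2.27 (adjusted p = 2.0e-06) in Eed deficient and by 3.68 (adjusted p = 1.1e-08) in double deficient cells. Among the 13984 genes these were the 8th, 83rd and 22nd largest rises. Zic1 passed the filter only through the 9 mutant arrays, with 0 wild type arrays above the 40th percentile, so a gene that passes in this way had to differ. In the model without a filter its rise was called in all 3 comparisons, with an adjusted p of 2.6e-07 in Ring1B deficient cells.

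The rise of Zic1 was not equal in the mutants. Zic1 was lower in Eed deficient than in Ring1B deficient cells, by 1.15 on the log2 scale (SE 0.17, adjusted p = 0.0027). Double deficient cells exceeded Eed deficient cells by 1.42 (adjusted p = 0.0011), a ratio of mean signals of 2.78. Double deficient and Ring1B deficient arrays overlapped, and their difference of 0.26 was not called (adjusted p = 0.294, 95% interval -0.10 to 0.63). The order of levels was therefore double deficient, Ring1B deficient, Eed deficient and wild type, with only the first pair of neighbours not separated. Without Ring1B, Zic1 was higher by 3.42 in a wild type background and by 1.42 in an Eed deficient background. The interaction term, the second change minus the first, was -2.002 (SE 0.24, adjusted p = 0.0010). It compares log2 changes, the first of which starts from a wild type signal near the background, and steps in linear signal were not compared.

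The second Zic1 probe set also read higher on all mutant arrays than in wild type cells. It read 1.06, 0.361 and 1.03 in wild type cells and 59.7, 58.9 and 41.8 without Ring1B. Values were 14.0, 23.5 and 18.0 without Eed and 54.5, 44.0 and 45.0 without both. Wild type arrays were lowest and Eed deficient arrays lay between, with no overlap, while Ring1B deficient and double deficient arrays overlapped, with the mean of the former higher here (53.5 ± 10.1 against 47.8 ± 5.80). Fitted among all 30027 probe sets kept, it rose by 3.32, 2.00 and 3.18 on the log2 scale without Ring1B, Eed or both (limma adjusted p = 5.9e-07, 4.1e-05 and 3.2e-07). Its interaction term was -2.13 (adjusted p = 0.0034). It too passed the filter only through the 9 mutant arrays, with 0 wild type arrays above the 40th percentile, so these tests add no independent support. Over all probe sets without a filter its adjusted p was 4.1e-06, 1.7e-04 and 1.7e-06 for the 3 rises and 0.0097 for the interaction. Over the 12 arrays the log2 values of the Zic1 probe sets correlated at r = 0.983, a description of arrays that cluster by genotype.

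Zic4, the neighbour of Zic1, stayed low and was not called in any comparison. Its tested probe set read 9.64, 12.7 and 15.8 in wild type cells and 14.5, 13.3 and 12.8 without Ring1B. Values were 2.57, 5.46 and 11.4 without Eed and 15.5, 18.9 and 15.1 without both. Only the Eed deficient arrays reached below the others, and they overlapped with wild type. The log2 change against wild type was 0.08 (SE 0.28, adjusted p = 0.922) without Ring1B, -0.68 (adjusted p = 0.125) without Eed and 0.29 (adjusted p = 0.464) without both, by limma. The 95% intervals ran from -0.53 to 0.69, from -1.29 to -0.07 and from -0.32 to 0.90. Double deficient arrays lay above Eed deficient arrays without overlap, by 0.97 (adjusted p = 0.0941). Without Eed deficient replicate 3, the brightest of that genotype, Zic4 was called lower in Eed deficient than in wild type cells (-0.98, adjusted p = 0.0403) and higher in double deficient than in Eed deficient cells (1.27, adjusted p = 0.0345). The other Zic4 probe set lay between 0.532 and 7.24 on all arrays, had 0 arrays above the 40th percentile and was not tested. At these levels a small change of Zic4 was not detectable.

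The change of Zic1 and that of Zic4 were compared within each array, so that only changes and not levels of different probe sets were set against each other. The log2 change of Zic1 exceeded that of Zic4 by 3.34, 2.95 and 3.39 without Ring1B, Eed or both. Each of these had p = 0.1 in an exact two-sided permutation test, the smallest that 3 arrays against 3 allow, and 0.171 after adjustment over 12 such comparisons, so this test cannot reach 0.05 on 3 arrays a group. The mutant arrays lay above the wild type arrays without overlap in all 3 cases. Zic1 by itself showed the same separation and passed the filter only through the mutant arrays, while Zic4 overlapped with wild type in each. The separation of the difference therefore adds no support beyond the change of Zic1.

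Zic5, the active member, fell in every mutant genotype. The brightest of its 3 probe sets read 610.0, 247 and 290 on the wild type arrays and 205, 103 and 136 on the Ring1B deficient arrays. The Eed deficient arrays gave 104, 54.5 and 71.2, and the double deficient arrays 86.0, 60.05 and 78.7. All 9 mutant arrays lay below all 3 wild type arrays, and wild type replicate 1 stood apart at 2.27 times the mean of the other wild type arrays. Mean signals were 382 ± 198 in wild type cells and 148 ± 51.9, 76.4 ± 25.0 and 74.9 ± 13.4 without Ring1B, Eed or both (SD, n = 3). On the log2 scale Zic5 fell by 1.28 (SE 0.33, limma adjusted p = 0.0311) without Ring1B, by 2.18 (adjusted p = 6.4e-04) without Eed and by 2.18 (adjusted p = 2.8e-04) without both. These were the 80th, 7th and 23rd largest falls among 13984 genes. In Eed deficient and double deficient cells the ratio of mean signals to wild type was 0.200 and 0.196. The call in Ring1B deficient cells was lost without wild type replicate 1 (-0.89, adjusted p = 0.109), wild type replicate 3 (adjusted p = 0.0506), Ring1B deficient replicate 2 (adjusted p = 0.119) or Ring1B deficient replicate 3 (adjusted p = 0.0966), and when only these 2 genotypes were fitted (adjusted p = 0.0675). That call held in 18 of 23 alternative settings, while the falls in Eed deficient and double deficient cells were called under all 23.

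Among the mutants, the difference in Zic5 between double deficient and Eed deficient cells was 0.00 (95% interval -0.70 to 0.71, adjusted p = 0.998). Ring1B deficient cells lay between these and wild type. Double deficient arrays were all below Ring1B deficient arrays, by 0.90 on the log2 scale (limma adjusted p = 0.0713), which was called after quantile normalization (-1.03, adjusted p = 0.0408) or median centring of the arrays (-1.15, adjusted p = 0.0238). Eed deficient and Ring1B deficient arrays overlapped, with a difference of -0.90 (adjusted p = 0.149). The interaction term of 1.28 was not called (SE 0.46, adjusted p = 0.187, 95% interval 0.28 to 2.28). With replicate number as a block, an alternative set out below, this term and both differences from Ring1B deficient cells were called. The order was thus wild type, Ring1B deficient, then Eed deficient and double deficient, with only the first pair of neighbours separated by a call in this model.

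The other Zic5 probe sets moved the same way. The next brightest read 508, 206 and 246 in wild type cells and 167, 83.2 and 124 without Ring1B. Values were 74.1, 30.9 and 52.7 without Eed and 54.3, 40.7 and 52.7 without both. Its mutant arrays lay below all wild type arrays, with log2 changes of -1.26, -2.46 and -2.48 (limma adjusted p over all probe sets 0.0511, 3.7e-04 and 1.5e-04). It was also lower in double deficient than in Ring1B deficient cells (-1.22, adjusted p = 0.0302). The dimmest read 91.9, 38.6 and 47.3 in wild type cells and 23.3, 21.9 and 28.4 without Ring1B. Values were 21.5, 7.77 and 18.2 without Eed and 22.3, 11.1 and 21.3 without both. Its mutant arrays too lay below all wild type arrays, and its changes were -1.04, -1.61 and -1.42 (adjusted p = 0.0978, 0.0063 and 0.0062). On both of these probe sets the Ring1B deficient difference was not called.

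**Figure D2:**
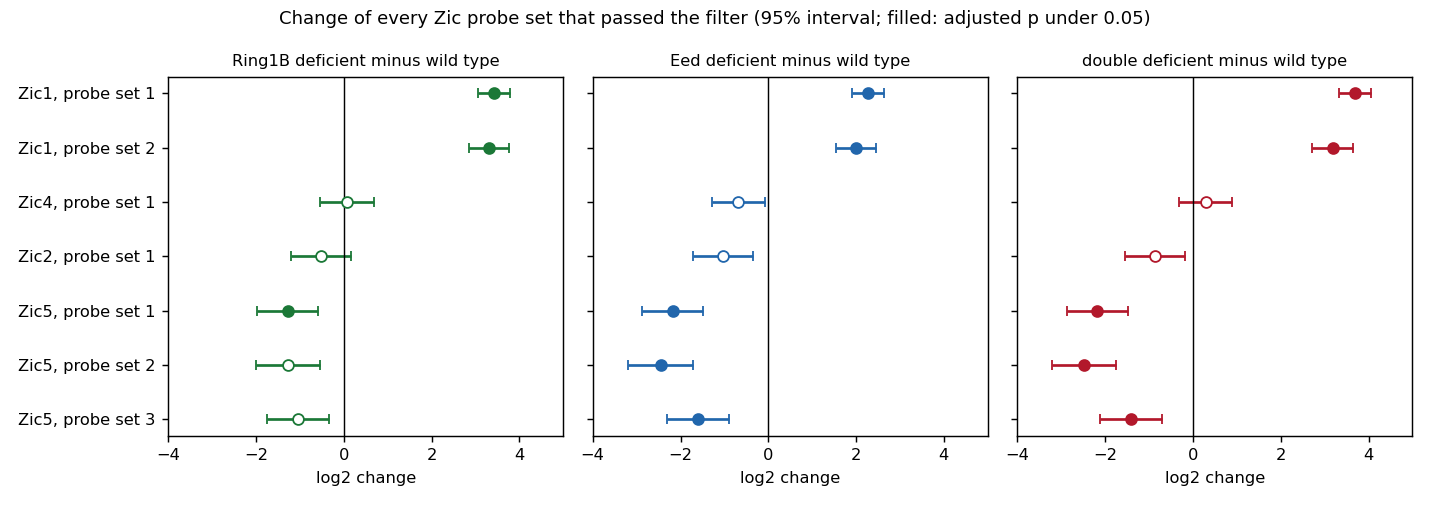
Log2 change against wild type, with its 95% interval, of the 7 Zic probe sets that passed the filter, in Ring1B deficient, Eed deficient and double deficient cells. Filled points have an adjusted p under 0.05 over all 30027 probe sets. Both Zic1 probe sets lie between 2.00 and 3.68, all 3 Zic5 probe sets lie between -2.48 and -1.04, and Zic2, at an adjusted p of 0.0554 on this scale in Eed deficient cells, is drawn open.

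Zic2, the neighbour of Zic5, was called lower in Eed deficient cells, by a margin that most alternatives removed, and was not called in the other mutants. Its only probe set read 71.1, 35.8 and 27.4 on the wild type arrays and 36.7, 22.5 and 25.2 on the Ring1B deficient arrays. The Eed deficient arrays gave 22.2, 11.4 and 21.6, and the double deficient arrays 20.9, 14.0 and 28.7. Only the Eed deficient arrays were all below wild type, and wild type replicate 1 was at 2.25 times the mean of the other wild type arrays. Mean signals were 44.8 ± 23.2, 28.1 ± 7.54, 18.4 ± 6.05 and 21.2 ± 7.35 (SD, n = 3). The log2 change was -0.51 (SE 0.33, limma adjusted p = 0.423) without Ring1B, -1.03 (adjusted p = 0.0494) without Eed and -0.87 (adjusted p = 0.0596) without both. The call in Eed deficient cells held in 8 of 22 alternative settings and was lost without wild type replicate 1 (-0.67, adjusted p = 0.192) and in the model without a filter (adjusted p = 0.0727). Conversely, the difference in double deficient cells was called after quantile normalization (-1.08, adjusted p = 0.0190) or median centring (-1.12, adjusted p = 0.0143). Between mutants, no Zic2 difference was called, with adjusted p values of 0.844 for double deficient against Eed deficient, 0.478 against Ring1B deficient and 0.452 for Eed deficient against Ring1B deficient cells. No neighbouring levels in the order wild type, Ring1B deficient, double deficient and Eed deficient were separated.

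The neighbours Zic2 and Zic5 were high and low on many of the same arrays. Over the 12 arrays, which cluster by genotype and share their scaling, the log2 values of Zic2 and Zic5 correlated at r = 0.896 and those of Zic1 and Zic4 at r = 0.189. Within arrays, the fall of Zic5 exceeded the difference in Zic2 by 0.76, 1.15 and 1.31 without Ring1B, Eed or both (exact permutation p = 0.1 each, the smallest possible, adjusted p = 0.171). The Zic1 and Zic5 values correlated at r = -0.699.

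**Figure D3:**
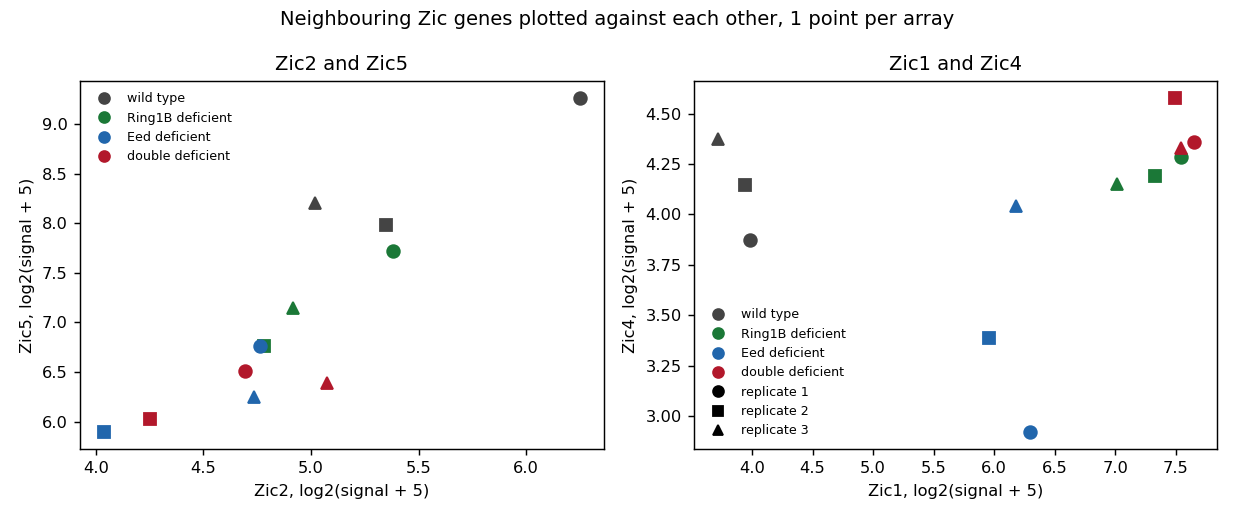
Log2 (signal + 5) of neighbouring Zic genes plotted against each other, with 1 point per array, colours giving the genotype and shapes the replicate number. On the left, Zic5 and Zic2 run together, with wild type replicate 1 at the upper right (signals of 610.0 and 71.1). On the right, Zic1 separates wild type from all mutants while Zic4 varies within genotypes.

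Counted over the family, 1 of the 4 genes was called higher and 1 lower without Ring1B, where the background over all tested genes was 4.68% higher and 2.5% lower. Without Eed 1 was higher and 2 were lower, against 10.8% and 4.56% of all genes. In double deficient cells 1 was higher and 1 lower, against 19.5% and 11.4%. Arrays did not overlap with wild type for 2, 3 and 2 of the 4 genes, against 22.7%, 30.4% and 45.8% of all genes in the same order. These 3 comparisons share the wild type arrays, so they are not independent of each other. Of second-order comparisons, only Zic1 was called for double against Eed deficient cells (1.9% of all genes), for Eed against Ring1B deficient cells (4.48%) and for the interaction (1.9%). For double against Ring1B deficient cells limma called 0 of 4 (18.7% of all genes), with 1, Zic5, at an unadjusted p under 0.05. With 4 members, one of which passed the filter only through the mutants, these counts describe the family and no more.

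The split between low and active members can be set beside all genes of the same class in wild type, without a filter on low values. Among 6093 genes that were low in wild type, as Zic1 and Zic4 were, 3.04%, 5.60% and 14.5% were called higher without Ring1B, Eed or both, and 0.131%, 0.181% and 0.361% lower. Among 6163 genes that were active in wild type, as Zic5 was, 2.84%, 7.12% and 19.4% were called lower and 2.53%, 6.20% and 10.1% higher. Of the 5937 intermediate genes, the class of Zic2, 1.499%, 1.60% and 4.06% were called lower and 4.16%, 10.7% and 21.0% higher. A low gene has little room to be measured lower, so the shares of the low and active classes are not alike by construction. The classes were also set on the same wild type arrays that every change is taken against. Spread in those arrays thus favours falls of active genes and rises of low genes, so these shares do not test the split. Without a filter, Zic1 was called higher in all 3 mutants, Zic5 was called lower in all 3 (adjusted p = 0.0468, 0.0012 and 5.2e-04), and Zic2 and Zic4 were called in none of the 3.

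The nearest tested genes on each side of both Zic pairs were read from the order of genes in the RefSeq table. Next to Zic1 and Zic4, Plscr1, a phospholipid scramblase gene, rose from 182 ± 19.8 to 361 ± 24.8, 303 ± 50.3 and 340 ± 47.4 without Ring1B, Eed or both. Its log2 changes of 0.97, 0.71 and 0.88 were all called and were smaller than those of Zic1. Plscr2, a paralog, rose by 1.84 without Eed and 2.58 without both, and its change of 0.45 in Ring1B deficient cells was not called (limma adjusted p = 0.620). Its mean signal was 0.417 ± 0.354 in wild type cells, 17.1 ± 12.8 without Eed and 27.8 ± 6.11 without both, so its rise starts from the background. On the other side Tbc1d2b and Adamts7, a metalloproteinase gene, were called higher in double deficient cells, by 0.98 and 0.83, and in neither single mutant. Adamts7 had mean signals of 7.90 ± 2.98 in wild type and 17.6 ± 0.727 in double deficient cells, both under the array medians. Next to Zic2 and Zic5, Clybl, which encodes a mitochondrial lyase, fell by 0.98 without Eed and by 1.30 without both, and its Ring1B deficient change of -0.36 was not called (adjusted p = 0.547). Pcca, which encodes a subunit of propionyl-CoA carboxylase, read 235 ± 19.8 in wild type cells and 242 ± 4.66, 120 ± 13.3 and 114 ± 3.51 without Ring1B, Eed or both. It thus fell by 0.95 and 1.01 in the genotypes that lack Eed, while the Ring1B deficient change was 0.04 (adjusted p = 0.898). Tm9sf2 fell by 0.41 and 0.33 in the same genotypes, and Ggact was called in none of the comparisons with wild type (-0.43 and -0.27, adjusted p = 0.102 and 0.237).

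**Figure D4:**
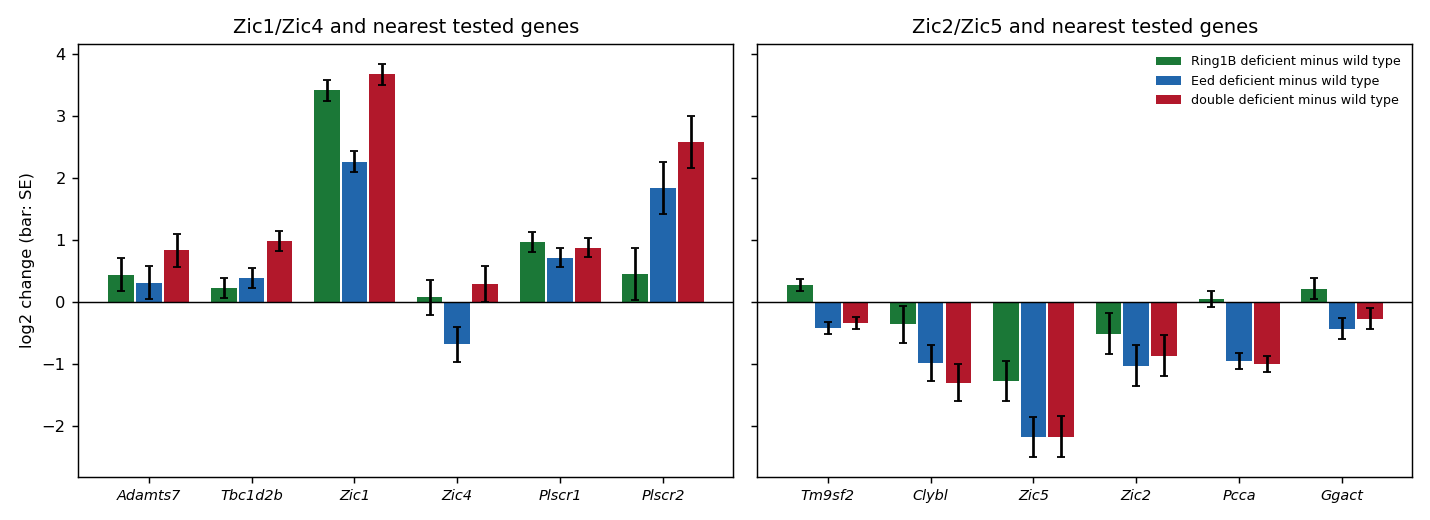
Log2 change against wild type (bar height; error bar, SE of the limma model) of the Zic genes and the nearest tested genes of each pair, in gene order, with bars for Ring1B deficient, Eed deficient and double deficient cells. Zic1 has the tallest bars on the left (3.42, 2.27 and 3.68), and Zic5 the deepest on the right (-1.28, -2.18 and -2.18). Clybl, Tm9sf2, Pcca and Ggact also lie below 0 in both genotypes without Eed, where Ggact was not called.

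By log2 values over the 12 arrays, the tested genes most like Zic1 were Pogk (r = 0.982), Degs1 (0.972), Hoxd13 (0.971) and Hoxa11os (0.970). Pogk went from 8.12 ± 2.06 in wild type to 69.1 ± 19.1, 34.2 ± 5.67 and 81.1 ± 4.15 without Ring1B, Eed or both, in the same order of genotypes as Zic1. Those most like Zic5 were Chd9 (0.976), which encodes a chromatin remodeller, Slc20a2 (0.965), Abcc4 (0.958) and Enah (0.956). Chd9 went from 406 ± 101 to 264 ± 54.5, 189 ± 52.4 and 163 ± 16.5. For Zic2 they were Haus2 (0.974), Acin1 (0.932), Tfip11 (0.926) and Abl2 (0.926), and for Zic4 AF067061 (0.898), 4933438K21Rik (0.896), Oaz3 (0.891) and Gdf11 (0.877). These correlations describe arrays that cluster by genotype and share their scaling.

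The Gli and Glis genes are the zinc finger relatives of the Zic family, and the Gli proteins are the effectors of Hedgehog signalling. The Gli and Glis list and the Hedgehog list each held genes called higher and genes called lower in double deficient cells. Beside the counts of this and the following lists stand the shares of all tested genes, 4.68%, 10.8% and 19.5% called higher and 2.5%, 4.56% and 11.4% lower without Ring1B, Eed or both. A count near its share is not a result about the list. The list counts that leave out 1 array were chosen after seeing the data. Of 6 Gli and Glis genes, 0 were higher and 1 lower without Ring1B, 1 and 1 without Eed and 1 and 2 without both, with median log2 changes of -0.33, -0.14 and 0.32. Gli1, a Hedgehog target, fell from 66.7 ± 19.1 to 27.6 ± 8.37, 28.9 ± 9.30 and 15.6 ± 5.60, and was called in all 3 (-1.14, -1.08 and -1.80). Gli2, a transcriptional effector of the pathway, was called lower in double deficient cells (-1.33) and in neither single mutant, and Glis1 was not called (1.26 in double deficient cells, limma adjusted p = 0.059). Of 12 tested genes of 15 on the Hedgehog list, 1, 2 and 3 were higher and 1, 1 and 2 lower. Ptch1, the Hedgehog receptor and itself a target, fell from 650 ± 250 to 227 ± 76.2, 253 ± 93.7 and 169 ± 29.6. Scube2, which helps to release the ligand, rose by 0.92, 1.27 and 1.72, and Dhh, a ligand, rose in double deficient cells by 1.55. Shh itself lay below the array median on all arrays. Without wild type replicate 1, 0 Gli and Glis genes were called lower in either single mutant, and without Eed deficient replicate 3 the count in Eed deficient cells was again 0. Scube2 was the only Hedgehog gene called higher without Ring1B (adjusted p = 0.0459), and that count was 0 without wild type replicate 1 or without Eed deficient replicate 3. Without the latter, 1 Hedgehog gene was called higher in Eed deficient cells.

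Lists for the tissues where Zic genes act also held genes that rose. Of 15 tested genes of 19 on the neural plate border and neural crest list, 5, 6 and 8 were higher and 1, 0 and 1 lower without Ring1B, Eed or both (median log2 change 0.42, 0.62 and 1.09). Ets1 rose by 0.92, 2.24 and 2.88, Msx2 by 1.16, 2.07 and 2.71 and Msx1 by 1.10, 1.26 and 1.75, all transcription factors of the border or crest. Of 9 roof plate and dorsal neural tube genes, 2, 4 and 4 were higher and 0 lower in each, among them the ligand genes Bmp4 (1.93, 1.67 and 1.67) and Bmp6 (1.22, 1.35 and 1.66), while Lmx1b was not called. In these 2 lists, 5 of 15 and 2 of 9 were called higher without Ring1B against 4.68% of all genes. Without Eed deficient replicate 3, 4 of 15 border and crest genes and 2 of 8 roof plate genes were called higher in Eed deficient cells. Of 14 neural plate genes, 2, 3 and 5 were higher and 2, 2 and 3 lower. Lhx2, a forebrain and eye regulator, rose by 1.75, 1.94 and 2.45, while Pax6 fell from 139 ± 49.9 to 40.5 ± 4.56, 30.9 ± 4.01 and 39.9 ± 9.11. En2 was called in double deficient cells (1.63) and in neither single mutant. Of 12 paraxial mesoderm and somite genes, 2, 2 and 5 were higher and 0 lower. Foxc2 was up by 1.52, 1.55 and 2.07, and Foxc1 (1.09) and Pax1 (1.30) were called in double deficient cells. Pax1 lay below the array median on all arrays, so its call rests on signals near the background. Without wild type replicate 1 the somite count in double deficient cells was 3, 0 border and crest genes were called lower in Ring1B deficient cells, and 1 neural plate gene was called lower in each single mutant. The neural plate count in Eed deficient cells was also 1 without Eed deficient replicate 3.

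Zic2 and Zic5 are also known from the formative and primed states of the epiblast. Of 19 formative and primed epiblast genes, 1, 2 and 2 were higher and 3, 1 and 3 lower without Ring1B, Eed or both (median -0.14, -0.20 and 0.00). Car4 and Cldn6 rose in double deficient cells by 2.57 and 2.14, and Pim2 fell there by 1.47. Without wild type replicate 1 the lower counts were 1, 0 and 2, and without Eed deficient replicate 3 they were 1 and 0 in the single mutants, with 0 called higher without Ring1B. Of 14 naive pluripotency genes, 3, 2 and 1 were higher and 0, 0 and 3 lower, with Tbx3 up by 1.88, 1.76 and 2.03 and neither Klf2 nor Nr0b1 called. Without wild type replicate 1, 1 naive gene was called lower in Ring1B deficient cells. Set beside these lists, the median over all genes was -0.01, 0.03 and 0.10.

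Markers of other cell types also differed from wild type, but fibroblast and feeder markers did not rise in Ring1B deficient cells. Summed signals of 15 visceral endoderm markers ran from 245 to 325 in wild type cells and 1830 to 2800, 1705 to 4976 and 2881 to 3152 without Ring1B, Eed or both, with 10, 13 and 12 called higher. The sums of 12 neuron and neural progenitor markers ran from 3134 to 3633, 2449 to 2620, 2017 to 2436 and 1584 to 2146. They lay below wild type on all mutant arrays, and Stmn2 alone had a mean of 2081 ± 135 in wild type cells. Of the 12, 4, 3 and 4 were called lower, among them Neurod1 (-2.42, -2.46 and -2.24), and 8, 9 and 8 were not called. The median log2 change was -0.29, -0.35 and -0.37. The count of 4 in Ring1B deficient cells was 2 without wild type replicate 1 and 2 without Eed deficient replicate 3. The sums of 17 fibroblast and feeder markers ran from 4284 to 4674, 2816 to 3951, 5144 to 10164 and 10216 to 11138, with 0, 6 and 13 called higher. The count of 6 was 1 without Eed deficient replicate 3 and 2 without wild type replicate 1, and leaving out the former gave 1 of these markers called higher and 1 lower in Ring1B deficient cells. No marker of these lists lay below the array median on all arrays, and the sums of the 9 ES cell markers were 21255 to 22064 in wild type and 14868 to 16772 in double deficient cells. The part of other cell types in the Zic changes was not tested.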

How the data were processed

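The authors deposited MAS5 intensity values on a linear scale, per the submitters' processing notes. Its version and settings were not given in the sources used here, and detection calls were not analysed. RNA from 12 cultures was hybridised to 12 arrays. The number of arrays limits the precision. Of 45101 probe sets, 64 were controls. A probe set was kept where at least 3 of 12 arrays exceeded that array's 40th percentile (30027 kept), and the brightest probe set of each gene was tested (13984 genes). Signals were analysed as log2 after adding 5. A model with 1 mean per genotype was fitted with limma 3.58.1 in R 4.3.3, with moderated variances and an intensity trend, and Benjamini-Hochberg adjustment. Genes were called at an adjusted p under 0.05. The fit was tested on simulated data with known changes in double deficient cells. It recovered 60% of 100 genes changed by 1 on the log2 scale and 92% of 100 changed by 2, with 7 false calls. A change of 1 can thus go uncalled. Platform symbols were checked against RefSeq, with 0 changed.

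Named genes are the members, up to 3 genes per list with the largest change in double deficient cells, 4 most alike genes per member, and up to 2 tested neighbours a side. Members and lists were chosen with earlier results of these data known. Alternatives were quantile normalization, median centring, 1 or 20 added, no filter or a 60th percentile filter, the mean over probe sets, every probe set, pairs of genotypes, no trend, a replicate block and leaving out each array. Promoters came from a RefSeq table.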

Additional observations from a re-analysis of the deposited data

Results flagged for a closer look

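The change of Zic1 on loss of Ring1B differed between backgrounds. The interaction term was -2.002 on the log2 scale (SE 0.24, limma adjusted p = 0.0010), with a rise of 3.42 from wild type to Ring1B deficient cells and of 1.42 from Eed deficient to double deficient cells. In both steps all 3 arrays of the genotype without Ring1B lay above those of the genotype with it. The term kept its sign and call in 22 of 22 alternative settings, from -2.37 to -1.29.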

How the results depend on the processing

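The 6 Zic1 calls, and the Zic5 falls in Eed deficient and double deficient cells, kept direction and call under every alternative run for them. Quantile normalization gave, for Zic2, -1.08 in double deficient cells against wild type (adjusted p = 0.0190, limma here and below) and -0.0065 against Eed deficient cells. For Zic5 it gave -0.075 against Eed deficient and -1.03 against Ring1B deficient cells, and for Zic4 -0.060 against Ring1B deficient cells. Median centring gave -1.12, -0.0073, -0.17, -1.15 and -0.038 for the same differences. With 20 added, the Zic5 difference between double deficient and Eed deficient cells was -0.0012. The Zic2 call in Eed deficient cells was lost with 1 added (-1.18, adjusted p = 0.0516), and at -1.03 without a filter, with every probe set tested (0.0554), with 2 genotypes (0.0931) and without the trend (0.0571). With 2 genotypes only, Zic5 was not called in Ring1B deficient cells (-1.28, 0.0675) and was called in double deficient against Ring1B deficient cells (-0.90, 0.0234).

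Leaving out each array moved the log2 change against wild type between -0.052 and 0.20 for Zic4 and between -1.53 and -0.89 for Zic5 in Ring1B deficient cells. In Eed deficient cells it lay between -1.29 and -0.67 for Zic2 and between -0.98 and -0.42 for Zic4, and in double deficient cells between -1.13 and -0.51 for Zic2. Double deficient against Eed deficient cells gave -0.076 to 0.37 for Zic2, 0.71 to 1.27 for Zic4 and -0.20 to 0.23 for Zic5, and double deficient against Ring1B deficient cells -1.12 to -0.65 for Zic5. Zic2 and Zic4 did not pass a 60th percentile filter. The cause of these shifts was not tested.

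Same-numbered arrays correlated from -0.05 to 0.61 in their deviations from genotype means (18 pairs, median 0.28, 13 over 0.1), and 9 of 12 arrays correlated best with their own number. All 6 pairs of number 1 (0.16 to 0.43) and all 6 of number 2 (0.27 to 0.61) were over 0.1, against 1 of 6 of number 3, and arrays of other numbers had a median of -0.19. Pairing was taken as given only if every pair was over 0.1, so the block stayed an alternative, although numbers 1 and 2 deviate together. The number 1 array was highest and the number 2 array lowest for Zic5 in 4 of 4 genotypes. With a replicate block, calls were added for Zic2 in double deficient cells against wild type (-0.87, 0.0138), Zic4 against Eed deficient (0.97, 0.0471), Zic5 against Ring1B deficient in double deficient (-0.90, 6.8e-04) and Eed deficient cells (-0.90, 0.0020), and the Zic5 interaction (1.28, 0.0026).

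Counts of called genes ranged widely. For Ring1B deficient, Eed deficient and double deficient cells against wild type the counts were 1005, 2146 and 4312, with ranges over settings of 562 to 2224, 1297 to 3788 and 3008 to 7173. For double against Eed deficient, double against Ring1B deficient, Eed against Ring1B deficient and the interaction they were 265 (40 to 1303), 2617 (1305 to 4373), 626 (187 to 1706) and 266 (94 to 1260). The highest count came with the replicate block, except for 7173, with every probe set tested.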
